A study of Mus musculus with 18 samples.

Results

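Genes of the surface ectoderm and of epithelial keratins were examined in whole mouse embryos at E11.5 that carried wild-type Dnmt3b, a Dnmt3b knockout or a catalytically inactive Dnmt3b. The genes were picked by symbol from a list drawn up with earlier results of these data known, and all 10 of them (Trp63, Krt5, Krt14, Krt15, Krt8, Krt18, Krt19, Epcam, Cdh1 and Perp) were present among the 34245 genes of the expression table. All 10 also passed the filter on low values, and they lie on GRCm38 as annotated protein-coding genes. They fall into 5 genes of stratifying epithelium (Trp63, Krt5, Krt14, Krt15 and Perp), 3 keratins of simple epithelium (Krt8, Krt18 and Krt19) and 2 adhesion molecules that both kinds of epithelium use (Epcam and Cdh1).

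Embryos were of the FVB strain and came from natural matings of heterozygous parents, Dnmt3b+/- and Dnmt3b+/CI. Dnmt3b+/+ embryos carried the wild-type gene, Dnmt3b-/- embryos a conventional knockout derived from a floxed allele, and Dnmt3bCI/CI embryos a knock-in, made with CRISPR/Cas9, by which the endogenous locus encodes a protein designed to lack methyltransferase activity (residual activity was not excluded). Live embryos were taken, genotypes came from yolk sac DNA, and total RNA of 3 whole embryos per genotype was sequenced as 1 library per embryo. The litters of the embryos were not given. From such parents a Dnmt3b-/- and a Dnmt3bCI/CI embryo cannot be littermates, so genotype and cross cannot be told apart in their direct comparison. Offspring of different founders of the knock-in line were not kept apart. The comparison of the 3 genotypes asks which changes seen without Dnmt3b protein also occur when the protein is present in this catalytically disabled form.

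Keratins are the intermediate filament proteins of epithelia, and a filament is built from pairs of a type II and a type I keratin. Simple, single-layered epithelia use Krt8 (type II) with Krt18 or Krt19 (type I). The surface ectoderm begins as such a sheet, and as it commits to epidermis and stratifies under the control of p63, the protein of Trp63, its basal cells take up Krt5 (type II) with Krt14 and Krt15 (type I). Dnmt3b is a de novo DNA methyltransferase, which adds methyl groups to the cytosine of CG dinucleotides.

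Krt5, Krt8 and Krt18 lie in the type II keratin cluster of chromosome 15, to which Krt18 is the type I exception, and they belong to the opposing kinds of epithelium compared here. Their promoters are shown for that reason, from 250 bases before to 50 bases after the start, 5′ to 3′ on the strand of the gene, as given by RefSeq on GRCm38.p6. Capitals mark CG dinucleotides, the letters on which DNA methyltransferases act.
Krt5 (chr15:101712856-101713155, minus strand): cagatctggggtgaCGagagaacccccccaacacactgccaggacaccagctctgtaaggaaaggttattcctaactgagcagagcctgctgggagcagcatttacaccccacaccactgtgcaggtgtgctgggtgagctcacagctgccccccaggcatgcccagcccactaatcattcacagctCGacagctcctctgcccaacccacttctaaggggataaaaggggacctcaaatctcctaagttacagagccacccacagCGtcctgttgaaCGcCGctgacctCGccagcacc
Krt8 (chr15:102004293-102004592, minus strand): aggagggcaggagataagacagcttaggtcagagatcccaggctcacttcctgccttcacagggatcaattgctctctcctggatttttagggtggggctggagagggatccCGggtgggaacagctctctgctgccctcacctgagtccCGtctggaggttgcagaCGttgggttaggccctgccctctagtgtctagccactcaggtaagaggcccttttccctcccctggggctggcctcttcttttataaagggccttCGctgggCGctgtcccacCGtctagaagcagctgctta
Krt18 (chr15:102027966-102028265, plus strand): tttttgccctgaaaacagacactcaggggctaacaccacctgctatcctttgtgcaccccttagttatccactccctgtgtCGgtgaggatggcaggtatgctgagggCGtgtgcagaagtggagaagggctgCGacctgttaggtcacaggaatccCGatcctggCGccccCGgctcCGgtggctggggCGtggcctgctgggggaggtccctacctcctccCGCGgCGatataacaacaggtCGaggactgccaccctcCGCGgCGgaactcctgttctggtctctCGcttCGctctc
The windows of Krt5 and of Krt8 held 6 CG dinucleotides each, and that of Krt18 held 17. The promoter of Epcam held 11, and the median of 32851 promoters was 7. At most 6 CG dinucleotides were found in 47.9% of all promoters, and at most 17 in 70.3%. The letters TATAAA, searched on both strands, were present in Krt8 only among these 4, with overlapping matches on both strands, and in 13.6% of all promoters. In Krt8 the matches begin at positions −1 and −3 from the start site of the window, so both run across that site. These counts describe the letters only, and methylation was not analysed here. RefSeq windows were found for 5 of the 10 genes (Krt5, Krt14, Krt8, Krt18 and Epcam). The window of Krt14 starts inside the gene, at the start of a shorter transcript, and was not used. The start sites of the windows of Krt8 and Krt18 also lie inside the annotated genes, 140 and 36 bases after their 5′ ends. Trp63, Krt15, Krt19, Cdh1 and Perp had no entry.

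Expression was measured as FPKM, a value scaled to the exon length of the gene and the reads of the library, which allows levels to be compared between genes of different length. The totals behind the normalization ranged from 38451729 to 49808777 reads per library, and each of the 10 genes had between 85 and 2546 reads in every embryo, so that none rests on a few reads. The reads of the whole table gave Dnmt3b itself at 2.25, 1.62 and 2.04 FPKM in Dnmt3b+/+, at 2.45, 3.12 and 3.33 FPKM in embryos labelled Dnmt3b-/-, and at 2.06, 1.98 and 2.32 FPKM in Dnmt3bCI/CI. The targeted gene was therefore not lower in the libraries labelled Dnmt3b-/-, and a value summed over the gene does not show which exons the reads cover, so these embryos are named by their label. The library of Dnmt3b+/+ embryo 2 stood apart: 8 of 10 hepatoblast markers were at 0.00416 to 0.119 FPKM, each far under its lowest level in any other embryo, with Alb, the albumin of liver cells, at 0.103 FPKM against 9.67 to 85.7 FPKM elsewhere. The 10 genes and the gene lists were also examined without this embryo, and the values are given where a call, a direction or a median changed. In whole embryos, fewer cells of a type and less RNA per cell cannot be told apart.

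The basal keratins Krt5, Krt14 and Krt15 were lower in every embryo labelled Dnmt3b-/- than in every Dnmt3b+/+ and every Dnmt3bCI/CI embryo. Their mean levels stood at 54.5%, 49.9% and 47.7% of Dnmt3b+/+. Trp63 and Perp, the other genes of stratifying epithelium, did not pass the test, nor did the simple keratins and adhesion molecules. In Dnmt3bCI/CI embryos, none of the 10 genes passed the test against Dnmt3b+/+. Changes were tested with limma on log2(FPKM + 0.1) over 19397 genes in all 9 embryos, with Benjamini-Hochberg adjustment over all of them and a threshold of 0.05, and fold changes are on that scale.

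**Figure D1:**
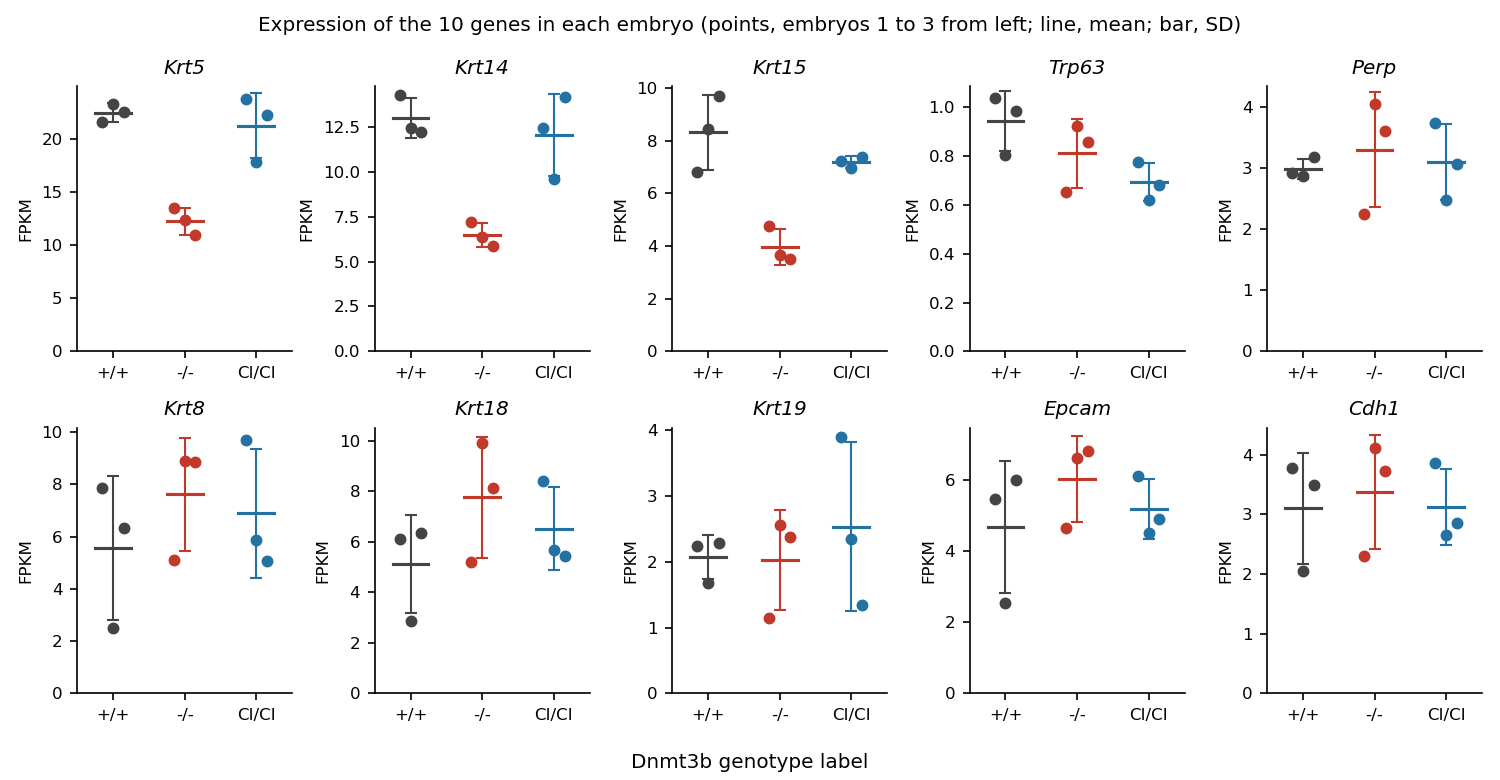
FPKM (y axis, from 0) of each of the 10 genes in the 9 embryos (points, embryos 1 to 3 from the left within a genotype), with the mean (line) and SD (bar) of the 3 embryos of each genotype label. Krt5, Krt14 and Krt15 sit lower in all 3 embryos labelled Dnmt3b-/- than in the other 6, while the points of Krt8, Krt18, Krt19, Epcam, Cdh1 and Perp overlap between genotypes.

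Krt5, at chr15:101707070-101712898 on the minus strand, encodes the type II keratin of basal epidermal cells. It measured 21.5, 23.3 and 22.5 FPKM in Dnmt3b+/+, 13.4, 12.3 and 10.9 FPKM in embryos labelled Dnmt3b-/-, and 23.7, 17.8 and 22.2 FPKM in Dnmt3bCI/CI. The Dnmt3b-/- values did not reach the lowest value of either other genotype, and the Dnmt3b+/+ and Dnmt3bCI/CI values overlapped. Against Dnmt3b+/+, the log2 fold change was −0.88 (SE 0.11, adjusted p = 0.0019 by limma). Against Dnmt3bCI/CI it was −0.79 (adjusted p = 0.0023 by limma). Both comparisons share the embryos labelled Dnmt3b-/-.

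Krt14, at chr11:100203162-100207548 on the minus strand, encodes the type I partner of Krt5 in basal cells. Its level was 14.3, 12.4 and 12.2 FPKM in Dnmt3b+/+, 7.17, 6.38 and 5.88 FPKM in Dnmt3b-/-, and 12.4, 9.59 and 14.1 FPKM in Dnmt3bCI/CI. Again the Dnmt3b-/- embryos formed a separate, lower group. The log2 fold change was −0.99 (SE 0.14, adjusted p = 0.0026 by limma) against Dnmt3b+/+ and −0.87 (adjusted p = 0.0036) against Dnmt3bCI/CI.

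Krt15, at chr11:100131758-100135928 on the minus strand, encodes another type I keratin of basal cells. It was found at 6.83, 8.44 and 9.70 FPKM in Dnmt3b+/+, 4.75, 3.66 and 3.50 FPKM in Dnmt3b-/-, and 7.25, 6.97 and 7.40 FPKM in Dnmt3bCI/CI. The Dnmt3b-/- values lay below all 6 others. The log2 fold change was −1.05 (SE 0.14, adjusted p = 0.0024 by limma) against Dnmt3b+/+ and −0.86 (adjusted p = 0.0043) against Dnmt3bCI/CI. These 3 keratins were the members called in both comparisons, 3 of 10 in each. Over all genes tested, 25.8% were called between Dnmt3b-/- and Dnmt3b+/+, 16.4% as lower, and 27.9% between Dnmt3b-/- and Dnmt3bCI/CI, 18.2% as lower, so a share of 3 in 10 was near the share called in either direction. The share called as lower depended on the scaling: with quantile normalization it was 10.5% and 11.8%, with more genes called as higher than as lower (2236 against 2044, and 2840 against 2281), and the 3 basal keratins were still the members called. Groups that did not overlap, with Dnmt3b-/- lower, were found for the same 3 members and for 23.8% of all genes against Dnmt3b+/+ and 29.5% against Dnmt3bCI/CI. With a fold change of at least 2 required as well, Krt15 met the limit against Dnmt3b+/+ (3.38% of all genes as lower) and no member against Dnmt3bCI/CI (4.32% as lower). Krt14 lay just short of it, at a fold of 0.503. The 3 basal keratins kept their call under all 18 alternative settings, those without Dnmt3b+/+ embryo 2 included.

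Trp63, at chr16:25683763-25892102 on the plus strand, encodes the transcription factor of the epidermal lineage. It was the least abundant of the 10 genes in every embryo, at 1.04, 0.804 and 0.984 FPKM in Dnmt3b+/+, 0.651, 0.922 and 0.858 FPKM in Dnmt3b-/-, and 0.775, 0.619 and 0.682 FPKM in Dnmt3bCI/CI. The Dnmt3b-/- values overlapped those of both other genotypes. Their log2 difference from Dnmt3b+/+ was −0.20 (95% confidence interval −0.55 to 0.15, adjusted p = 0.366 by limma), an interval that does not reach the estimate of any basal keratin. All Dnmt3bCI/CI values lay below all Dnmt3b+/+ values, with a log2 fold change of −0.39, an unadjusted p of 0.0313 and an adjusted p of 0.903 by limma. Trp63 was thereby the 1 member of 10 with an unadjusted p under 0.05 in this comparison, against 5.25% of all genes, and 5.65% of all genes had no overlap with Dnmt3bCI/CI lower.

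Perp, at chr10:18845020-18857073 on the plus strand, encodes a membrane protein of desmosomes and is a known target of p63. It measured 2.91, 2.87 and 3.17 FPKM in Dnmt3b+/+, 2.25, 4.05 and 3.61 FPKM in Dnmt3b-/-, and 3.73, 2.49 and 3.06 FPKM in Dnmt3bCI/CI. The Dnmt3b-/- embryos held both the lowest and the highest value of all 9. The log2 difference from Dnmt3b+/+ was 0.10 (95% confidence interval −0.39 to 0.59, adjusted p = 0.751 by limma). Of the stratification genes, 3 keratins were called as lower and 2 genes were not called.

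Krt8, at chr15:101996698-102004482 on the minus strand, encodes the type II keratin of simple epithelia. It measured 7.84, 2.49 and 6.33 FPKM in Dnmt3b+/+, 5.10, 8.87 and 8.87 FPKM in Dnmt3b-/-, and 9.71, 5.89 and 5.07 FPKM in Dnmt3bCI/CI. The lowest value of the 9 was that of Dnmt3b+/+ embryo 2, the library almost without hepatoblast markers, and the groups overlapped. The log2 difference between Dnmt3b-/- and Dnmt3b+/+ was 0.55 (95% confidence interval −0.43 to 1.53, adjusted p = 0.371 by limma), and without Dnmt3b+/+ embryo 2 it was 0.066 (adjusted p = 0.915).

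Krt18, at chr15:102028180-102032027 on the plus strand, encodes the type I partner of Krt8. It was found at 6.11, 2.87 and 6.36 FPKM in Dnmt3b+/+, 5.19, 9.91 and 8.14 FPKM in Dnmt3b-/-, and 8.40, 5.68 and 5.44 FPKM in Dnmt3bCI/CI. Dnmt3b+/+ embryo 2 was again the lowest. Its log2 difference of 0.63 between Dnmt3b-/- and Dnmt3b+/+ (95% confidence interval −0.15 to 1.40, adjusted p = 0.206 by limma) was 0.26 without that embryo.

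Krt19, at chr11:100140810-100148665 on the minus strand, encodes a type I keratin of simple epithelia. Its values were 2.23, 1.68 and 2.28 FPKM in Dnmt3b+/+, 1.15, 2.55 and 2.37 FPKM in Dnmt3b-/-, and 3.89, 2.34 and 1.35 FPKM in Dnmt3bCI/CI. Embryos of 1 genotype differed more from each other than the genotype means did. The log2 difference between Dnmt3b-/- and Dnmt3b+/+ was −0.092 (95% confidence interval −0.98 to 0.79, adjusted p = 0.877 by limma). Krt15 and Krt19 are near neighbours on chromosome 11, and 1 of them was called and the other was not.

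Epcam, at chr17:87635979-87651129 on the plus strand, encodes an epithelial cell adhesion molecule. It measured 5.48, 2.55 and 6.01 FPKM in Dnmt3b+/+, 4.65, 6.63 and 6.82 FPKM in Dnmt3b-/-, and 6.13, 4.52 and 4.91 FPKM in Dnmt3bCI/CI. The log2 difference between Dnmt3b-/- and Dnmt3b+/+ was 0.43 (95% confidence interval −0.26 to 1.12, adjusted p = 0.324 by limma), and 0.050 without Dnmt3b+/+ embryo 2. Cdh1, at chr8:106603351-106670246 on the plus strand, encodes E-cadherin of adherens junctions. It measured 3.78, 2.05 and 3.48 FPKM in Dnmt3b+/+, 2.30, 4.11 and 3.72 FPKM in Dnmt3b-/-, and 3.86, 2.66 and 2.85 FPKM in Dnmt3bCI/CI. Its log2 difference between Dnmt3b-/- and Dnmt3b+/+ was 0.13 (95% confidence interval −0.51 to 0.76, adjusted p = 0.763 by limma), and −0.14 without Dnmt3b+/+ embryo 2. For both adhesion molecules the genotypes overlapped, and Dnmt3b+/+ embryo 2 was the lowest embryo of all 9. The wide intervals of the simple keratins and adhesion molecules do not show that their levels were equal.

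In Dnmt3bCI/CI against Dnmt3b+/+, 0 of the 10 members passed limma's adjusted threshold, against 28 of 19397 genes (0.144%), and 1 member, Trp63, had an unadjusted p under 0.05. The basal keratins differed by a log2 value of −0.090 for Krt5 (95% confidence interval −0.35 to 0.17), −0.12 for Krt14 (−0.44 to 0.20) and −0.19 for Krt15 (−0.52 to 0.13). None of these intervals reached the estimated change of the same gene in Dnmt3b-/-. The difference between the genotypes is the direct comparison given above, in which all 3 were called. The simple keratins gave 0.40 for Krt8 (−0.58 to 1.38), 0.40 for Krt18 (−0.38 to 1.17) and 0.17 for Krt19 (−0.72 to 1.06). Without Dnmt3b+/+ embryo 2 these estimates were −0.088 for Krt8, 0.033 for Krt18 and 0.035 for Krt19. The adhesion molecules gave 0.22 for Epcam and 0.038 for Cdh1, and −0.16 and −0.23 without that embryo. Over all genes tested, the median log2 fold change was −0.070 in Dnmt3b-/- against Dnmt3b+/+ and 0.018 in Dnmt3bCI/CI against Dnmt3b+/+. For the 5 stratification genes these medians were −0.88 and −0.12, and for the 3 simple keratins 0.55 and 0.40. Without Dnmt3b+/+ embryo 2 the medians were −0.85 and −0.15 for the stratification genes, but 0.066 and 0.033 for the simple keratins.

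**Figure D2:**
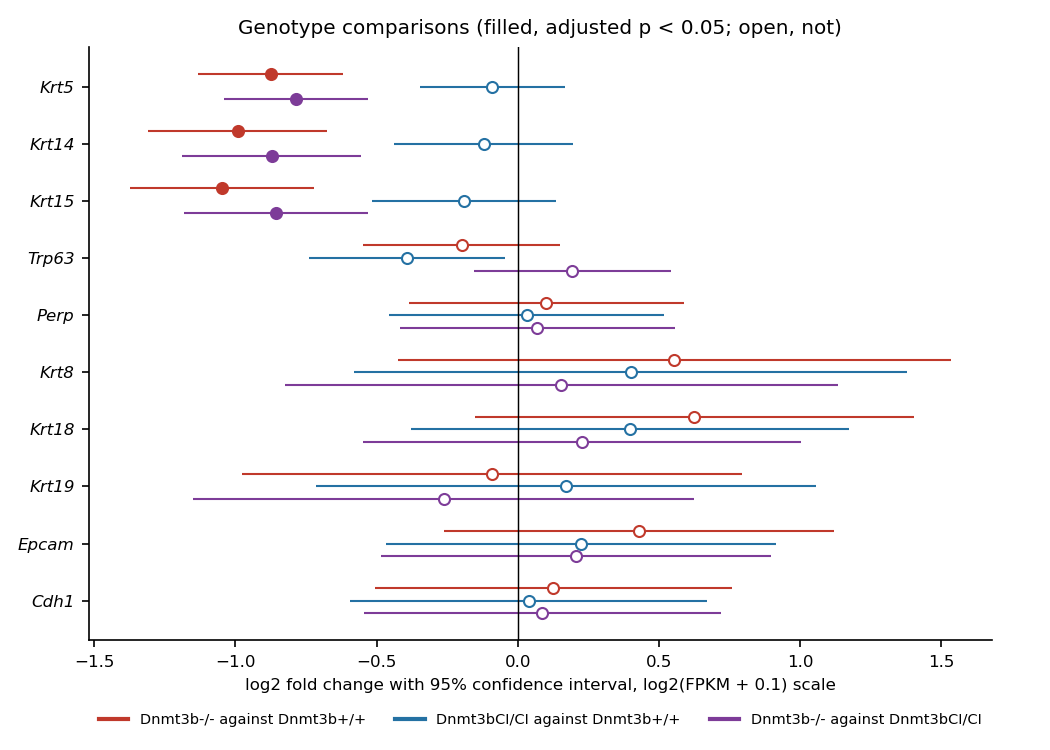
Log2 fold changes on the log2(FPKM + 0.1) scale (x axis) with 95% confidence intervals for the 10 genes (rows) in the 3 genotype comparisons (colours), with filled points at an adjusted p under 0.05. Filled points appear for Krt5, Krt14 and Krt15 in both comparisons that involve Dnmt3b-/-, between −0.79 and −1.05, and nowhere else.

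The order of levels differed between the labels. In Dnmt3b+/+, Krt5 was the most abundant of the 10 genes (22.4 ± 0.867 FPKM, mean ± SD, n = 3), followed by Krt14 (12.97 ± 1.12 FPKM) and Krt15 (8.32 ± 1.44 FPKM), and the values of these 3 genes did not overlap. Krt15 and the next genes, Krt8 (5.55 ± 2.76 FPKM), Krt18 (5.11 ± 1.95 FPKM), Epcam (4.68 ± 1.86 FPKM) and Cdh1 (3.10 ± 0.926 FPKM), each overlapped with their neighbour in the order. Below them came Perp (2.99 ± 0.164 FPKM), Krt19 (2.06 ± 0.336 FPKM) and Trp63 (0.941 ± 0.122 FPKM). Dnmt3bCI/CI embryos had the same order of means, from Krt5 (21.2 ± 3.05 FPKM) and Krt14 (12.0 ± 2.29 FPKM) to Trp63 (0.692 ± 0.0783 FPKM). In Dnmt3b-/-, Krt5 was still the first (12.2 ± 1.26 FPKM), but Krt18 (7.75 ± 2.38 FPKM) and Krt8 (7.61 ± 2.18 FPKM) stood before Krt14 (6.48 ± 0.653 FPKM), and Epcam (6.03 ± 1.20 FPKM) before Krt15 (3.97 ± 0.681 FPKM). From Krt18 to Krt15, each of these neighbours overlapped with the next.

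Ratios between genes of the same embryo do not depend on the total of its library. The ratio of Krt5 to its partner Krt14 lay between 1.51 and 1.93 in all 9 embryos, and that of Krt8 to its partner Krt18 between 0.869 and 1.28. Both pairs thus kept a narrow ratio while Krt5 and Krt14 differed in level between genotypes. Krt5 relative to Perp was 7.10 to 8.11 in Dnmt3b+/+, 3.02 to 5.98 in Dnmt3b-/- and 6.35 to 7.24 in Dnmt3bCI/CI, without overlap between Dnmt3b-/- and the others. Krt5 relative to Trp63 was 20.8 to 28.9, 12.7 to 20.6 and 28.7 to 32.5 in the same order, so the Dnmt3b-/- range ended just under the Dnmt3b+/+ range. The ratios of Krt14 to Perp and to Trp63 were likewise lower in every Dnmt3b-/- embryo than in the other 6, at 1.58 to 3.19 and 6.85 to 11.01. For Krt15 the ranges met, since Dnmt3b-/- embryo 1 had a ratio to Trp63 of 7.30, above Dnmt3b+/+ embryo 1 (6.60), and a ratio to Perp of 2.115, above Dnmt3bCI/CI embryo 1 (1.94). Relative to Cdh1, which all epithelia express, Krt5 in Dnmt3b-/- embryo 1 (5.84) was above Dnmt3b+/+ embryo 1 (5.71), and the other Dnmt3b-/- embryos had 3.00 and 2.94. Dnmt3b-/- embryo 1 thus differed from its group in this ratio.

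The ratio of Krt5 to Krt8, a basal and a simple keratin, compares 2 transcripts and is no measure of the amounts of the 2 epithelia. It was 2.75, 9.34 and 3.56 in Dnmt3b+/+, 2.64, 1.39 and 1.23 in Dnmt3b-/-, and 2.44, 3.02 and 4.37 in Dnmt3bCI/CI. The highest ratio was that of Dnmt3b+/+ embryo 2, the library almost without hepatoblast markers, and Dnmt3b-/- embryo 1 lay within the Dnmt3bCI/CI range. The mean log2 level of the 3 simple keratins minus that of the 5 stratification genes was −0.67 ± 0.54 in Dnmt3b+/+, 0.29 ± 0.47 in Dnmt3b-/- and −0.20 ± 0.48 in Dnmt3bCI/CI (mean ± SD, n = 3 each). Within Dnmt3b-/-, embryo 1 had −0.24 and the others 0.57 and 0.56, and embryo 1 lay above the highest Dnmt3b+/+ embryo (−0.29) by less than the spread within either genotype. The difference between the means of Dnmt3b-/- and Dnmt3b+/+ was 0.96, and 0.66 without Dnmt3b+/+ embryo 2. No test was made on this score, since the genes were grouped with results of these data known.

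**Figure D3:**
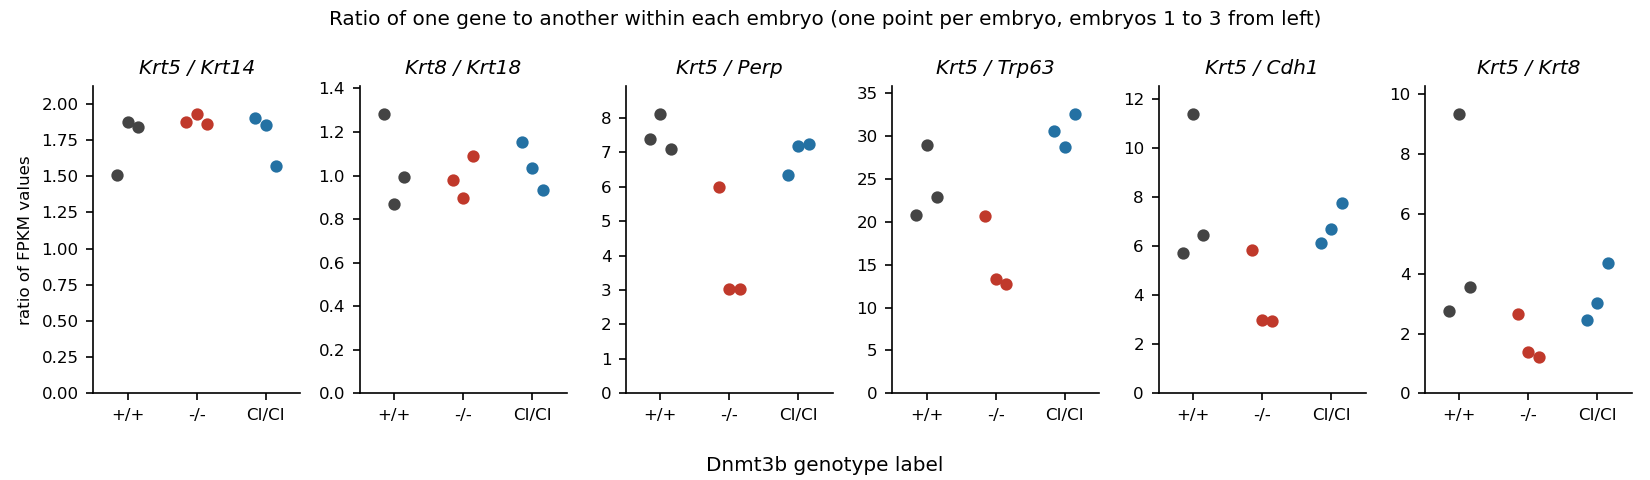
Ratios of the FPKM values of 6 gene pairs (y axis, no unit, from 0) within each of the 9 embryos (points, embryos 1 to 3 from the left within a genotype label). Krt5/Krt14 and Krt8/Krt18 stay within narrow ranges in all embryos (1.51 to 1.93 and 0.869 to 1.28), whereas Krt5/Perp is lower in all 3 embryos labelled Dnmt3b-/-.

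Across the 9 embryos 7 of the 10 genes fell into 2 sets. Krt5, Krt14 and Krt15 varied together, with Pearson correlations of log2(FPKM + 0.1) between 0.90 and 0.97, and so did Krt8, Krt18, Epcam and Cdh1, with 0.89 to 0.96. Correlations between the sets ran from −0.55 to −0.14. Trp63, Krt19 and Perp belonged to neither. Trp63 correlated with the basal keratins at −0.0049 to 0.099 and with the genes of the other set at 0.29 to 0.63. Krt19 and Perp correlated with that other set at 0.50 to 0.72 and 0.57 to 0.78, and with the basal keratins at −0.0064 to 0.10 and −0.29 to −0.13. The points of these correlations share the genotype: after the genotype means were subtracted, the range was 0.13 to 0.74 for the 3 basal keratins, 0.93 to 0.98 for Krt8, Krt18, Epcam and Cdh1, −0.50 to 0.049 between the sets and −0.55 to 0.079 for Trp63 with the basal keratins. Without Dnmt3b+/+ embryo 2, and with the genotype means kept, Krt8, Krt18, Epcam and Cdh1 ranged from 0.83 to 0.89 and the correlations between the sets from −0.50 to 0.024. The genes whose levels followed Krt8 most closely over the 9 embryos, among 12787 genes with a mean of at least 1 FPKM, were Mtr, Magt1, Ptbp3, Pus7 and Tbc1d1 (0.96 to 0.98). Without Dnmt3b+/+ embryo 2 these 5 correlated with Krt8 at 0.89 to 0.94, and only Mtr was still among the 5 closest, with Naa25, Dsp, Gm10129 and Pigf (0.94 to 0.98). For Trp63 they were Gm45732, Med23, Zfp644, Gm27010 and Ncapd3 (0.90 to 0.94), of which 3 were among the 5 closest without that embryo. All of these are descriptions over 9 libraries.

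**Figure D4:**
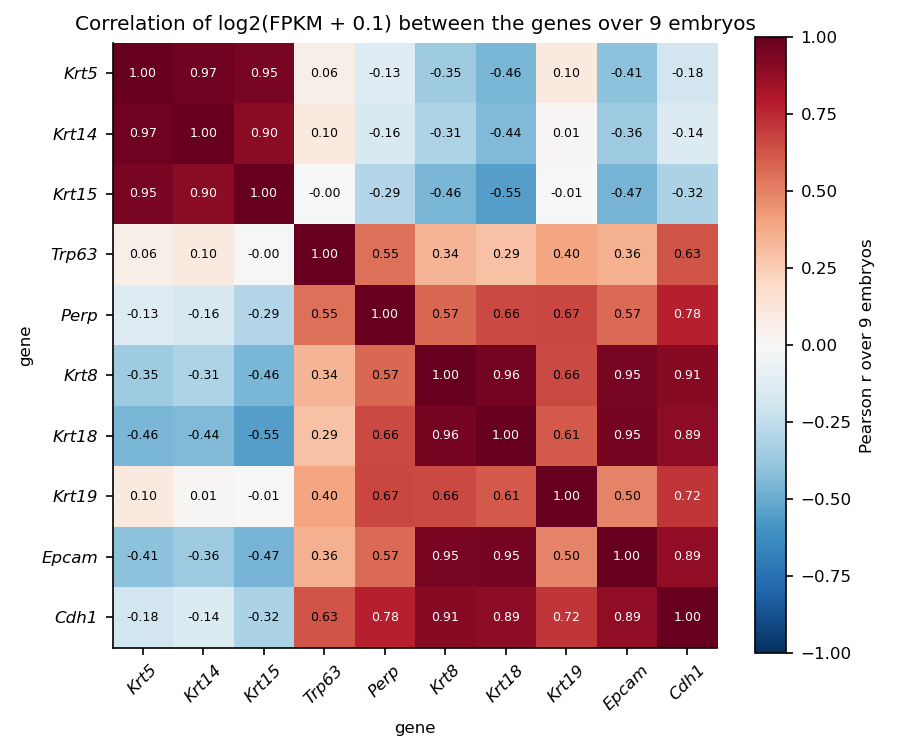
Pearson correlation of log2(FPKM + 0.1) over the 9 embryos between each pair of the 10 genes (rows and columns), coloured from −1 (blue) to 1 (red) with the value in each cell. Krt5, Krt14 and Krt15 form a block of 0.90 to 0.97, and Krt8, Krt18, Epcam and Cdh1 a block of 0.89 to 0.96.

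Related genes were then examined from 10 lists of epithelial, junctional and mesenchymal genes, which held 101 genes other than the members, 91 of them tested. Between Dnmt3b-/- and Dnmt3b+/+, 8 of the 91 were called as higher and 16 as lower (26.4%), near the 25.8% of all genes. Their median log2 fold change was 0.024, against −0.070 over all genes. Between Dnmt3b-/- and Dnmt3bCI/CI, 8 were higher and 14 lower (24.2%, against 27.9%). In Dnmt3bCI/CI against Dnmt3b+/+, limma called 0 of the 91, and 5 had an unadjusted p under 0.05. The count between Dnmt3b-/- and Dnmt3b+/+ fell to 17 without Dnmt3b+/+ embryo 2, to 11 without Dnmt3b+/+ embryo 3 or without Dnmt3b-/- embryo 2, and to 14 without Dnmt3b-/- embryo 3. With quantile normalization 10 were higher and 9 lower, so the excess of lower genes depended on the scaling. The calls named below are between Dnmt3b-/- and Dnmt3b+/+, by limma, unless another comparison is named. For each list, the background is that of all 19397 genes tested, of which 3175 (16.4%) were called as lower and 1826 as higher.

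Hemidesmosomes anchor the filaments of Krt5 and Krt14 to the basement membrane. Of 14 genes of hemidesmosomes and the epidermal basement membrane, all tested, 5 fell and none rose, with a median log2 fold change of −0.15. Among all genes tested, 16.4% were called as lower. Plec, which encodes the linker plectin, fell by 0.57 on the log2 scale (SE 0.14, adjusted p = 0.0218). Its level was 7.41, 7.58 and 7.61 FPKM in Dnmt3b+/+ and 6.45, 4.34 and 4.61 FPKM in Dnmt3b-/-. Dst, which encodes dystonin and its epidermal form, fell by 0.50 (adjusted p = 0.0295), and Col17a1, which encodes the transmembrane collagen of hemidesmosomes, fell by 0.69 (adjusted p = 0.0081). The value of Dst is summed over the gene in whole embryos and does not single out the epidermal form. The remaining genes of the 5, Itgb4 (log2 fold change −0.50, adjusted p = 0.0135) and Lama3 (−0.54, adjusted p = 0.0186), encode an integrin and a laminin chain and were named after their values were seen. When Dnmt3b+/+ embryo 2 was left out, 3 of the 5 were called, and Plec (−0.56, adjusted p = 0.0541) and Dst (−0.42, adjusted p = 0.0843) were not. The same number of genes, 5 of 14, was lower in Dnmt3b-/- than in Dnmt3bCI/CI, where 18.2% of all genes were called as lower.

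Desmosomes join keratin filaments of neighbouring cells. Of 9 desmosome genes, 8 were tested and 2 fell, with a median of −0.12. Pkp1, which encodes plakophilin of stratified epithelia, fell by 1.40 on the log2 scale (SE 0.20, adjusted p = 0.0029). It measured 0.589, 0.491 and 0.589 FPKM in Dnmt3b+/+, 0.0998, 0.173 and 0.182 FPKM in Dnmt3b-/-, and 0.443, 0.271 and 0.461 FPKM in Dnmt3bCI/CI, so that Dnmt3b-/- embryos were the lowest. Jup, which encodes plakoglobin of all desmosomes and of adherens junctions, fell by 0.31 (adjusted p = 0.0476), and was not called without Dnmt3b+/+ embryo 2 (−0.26, adjusted p = 0.130).

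Among 15 other keratins, 10 were tested, 2 fell and 1 rose, with a median of −0.22. Krt10, a keratin of suprabasal epidermis, fell by 0.43 (adjusted p = 0.0269), from 2.60 ± 0.151 to 1.91 ± 0.192 FPKM (mean ± SD, n = 3). Krt1, its type II partner, fell by 0.77 (adjusted p = 0.0189), at levels under 1 FPKM. Krt75, a keratin of hair follicles and nails, rose by a log2 value of 0.95 (adjusted p = 0.0114), also at low levels of 0.0438 ± 0.033 and 0.176 ± 0.0479 FPKM. In Dnmt3bCI/CI it was at 0.116 ± 0.00882 FPKM, and Dnmt3b-/- against Dnmt3bCI/CI was not called (0.34, adjusted p = 0.229 by limma). Every Dnmt3b+/+ value was under the 0.1 FPKM of the filter on low values, which Krt75 passed through the other genotypes. Krt10 was not called without Dnmt3b+/+ embryo 2 (−0.43, adjusted p = 0.0627), nor between Dnmt3b-/- and Dnmt3bCI/CI (−0.27, adjusted p = 0.105). Krt75 was the only keratin called as higher, and because of the filter no direction of the keratins as a group is drawn from it.

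Of 14 epithelial transcription and splicing regulators, all tested, 2 fell and none rose, with a median of 0.11, which was −0.049 without Dnmt3b+/+ embryo 2. Klf5, a regulator of proliferating epithelium, fell by 1.15 on the log2 scale (SE 0.12, adjusted p = 6.6e-04). Its values were 3.49, 3.25 and 3.88 FPKM in Dnmt3b+/+, 1.85, 1.39 and 1.42 FPKM in Dnmt3b-/-, and 3.27, 3.48 and 3.61 FPKM in Dnmt3bCI/CI. All 3 Dnmt3b-/- embryos lay below the other 6. Klf4, a regulator of the epidermal barrier, fell by 0.75 (adjusted p = 0.0178). Both genes are also expressed outside the epidermis.

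Among 13 genes that p63 is known to regulate, all tested, 3 fell and 1 rose, with a median of −0.15. The list shares Krt5, Krt14 and Perp with the members, and 2 of the 3 that fell were Krt5 and Krt14. The third was Igfbp3, which encodes a binding protein of insulin-like growth factors (log2 fold change −0.59, adjusted p = 0.0270), which was not called without Dnmt3b+/+ embryo 2 (adjusted p = 0.0635). Cdkn1a, which encodes the cell cycle inhibitor p21, rose by 1.04 (adjusted p = 0.0012), and p53 regulates it too. Of 9 epidermal differentiation genes, 5 were tested and none was called by limma, with 1 at an unadjusted p under 0.05. Sfn, which encodes 14-3-3 sigma and is also on the p63 list, had a log2 difference of 0.42 (adjusted p = 0.0570).

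None of 12 tight junction and polarity genes was called by limma and 3 had an unadjusted p under 0.05, with a median of 0.15, which was 0.015 without Dnmt3b+/+ embryo 2. Tjp1, which encodes ZO-1, had a log2 difference of 0.14 (adjusted p = 0.116). Of 5 epithelial membrane proteases and inhibitors, 2 rose: Spint1, an inhibitor (0.72, adjusted p = 0.0239), and St14, the matriptase it inhibits (0.78, adjusted p = 0.0497). The median of that list was 0.038. Neither was called without Dnmt3b+/+ embryo 2 (adjusted p = 0.0636 and 0.135), and the median was −0.12. Between Dnmt3b-/- and Dnmt3bCI/CI, neither was called (adjusted p = 0.137 and 0.0727). Of 10 mesenchymal genes and genes of the epithelial-mesenchymal transition, 1 rose and 2 fell, with a median of −0.054. These 3 calls were kept without Dnmt3b+/+ embryo 2, and Snai2, named after its value was seen, was also called as lower (−0.39, adjusted p = 0.0481). Twist1 rose by 0.59 (adjusted p = 0.0027), whereas Fn1, which encodes fibronectin, fell by 0.36 (adjusted p = 0.0145) and Zeb2 by 0.52 (adjusted p = 0.0097).

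Specialised ectoderm of the limb ridge and placodes was followed by 8 genes, which were not all specific to it. Of these, 3 rose and 2 fell, with a median of 0.30. Fgf8, a growth factor of the apical ectodermal ridge, rose by 1.74 on the log2 scale (SE 0.40, adjusted p = 0.0163). It measured 0.830, 0.372 and 0.642 FPKM in Dnmt3b+/+ and 1.06, 3.43 and 2.85 FPKM in Dnmt3b-/-. Every Dnmt3b-/- embryo was above every Dnmt3b+/+ embryo, and embryo 1 was the lowest of its group, as it was for 7 of the 10 members. Shh, a signal of limb bud, notochord and gut, rose by 1.18 (adjusted p = 0.0029), and Sp6, a factor of the ridge named after its values were seen, by 0.83 (adjusted p = 0.0284), which was not called without Dnmt3b+/+ embryo 2 (0.77, adjusted p = 0.0761). Eda, the ligand of placode formation, fell by 0.45 (adjusted p = 0.0291), and Wnt10b, a placode signal also named after its values were seen, by 0.97 (adjusted p = 0.0085). Between Dnmt3b-/- and Dnmt3bCI/CI, Sp6 (0.53, adjusted p = 0.109 by limma) and Eda (−0.36, adjusted p = 0.0555) were not called. The calls of this list went in both directions, and in whole embryos they cannot be assigned to the ectodermal structures.

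**Figure D5:**
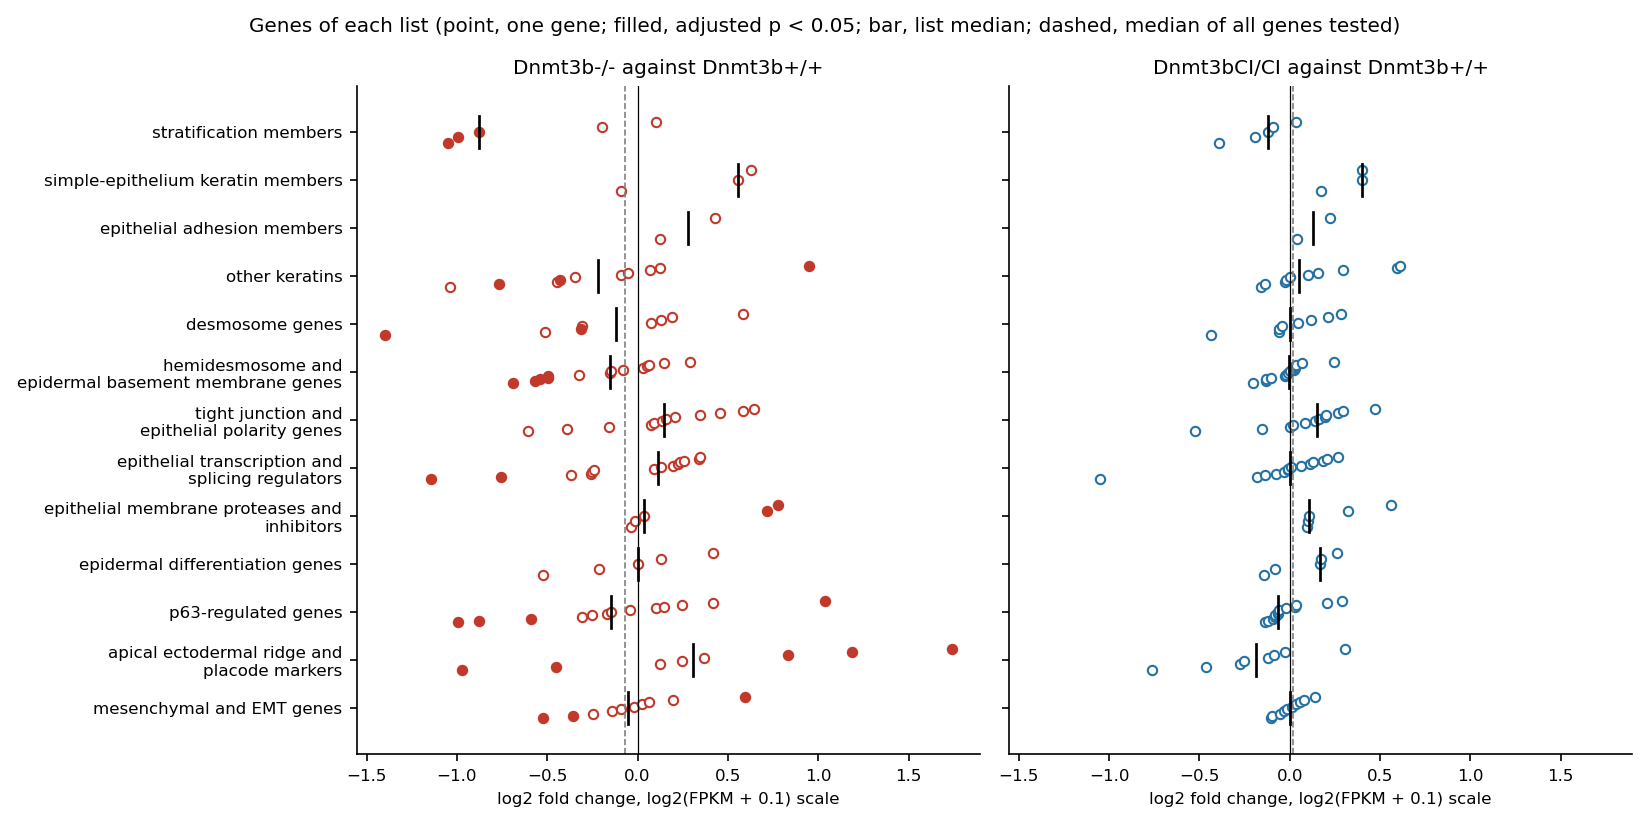
Log2 fold change on the log2(FPKM + 0.1) scale (x axis) of every tested gene (points, filled at an adjusted p under 0.05) in the member groups and related lists (rows), with the median of each list (bar) and of all tested genes (dashed line), for Dnmt3b-/- (left) and Dnmt3bCI/CI (right) against Dnmt3b+/+. Of the stratification members 3 are filled on the left, at −0.88 to −1.05, and no point is filled on the right.

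Markers of other cells that could hold Krt8, Krt18, Epcam or Cdh1, or take up a share of the library, moved as follows between Dnmt3b-/- and Dnmt3b+/+. Of 10 hepatoblast markers, 2 fell: Dlk1 by 1.22 (adjusted p = 1.8e-04) and Ttr by 2.19 (adjusted p = 0.0121). These are the 2 of the list that were not low in Dnmt3b+/+ embryo 2, where Dlk1 measured 60.0 FPKM (58.9 and 75.2 FPKM in the other Dnmt3b+/+ embryos) and Ttr 35.5 FPKM, its highest value of the 9, so they did not follow the other 8 markers. The median log2 fold change of the list was 0.30, a sign that rested on Dnmt3b+/+ embryo 2. Without it, all 10 differences were negative, the median was −1.24 and 7 markers fell, 5 of them among those 8, Alb by 2.31 (adjusted p = 0.0081) and Ahsg by 2.21 (adjusted p = 0.0033) among them. Alb measured 9.92, 19.2 and 9.67 FPKM in Dnmt3b-/- against 85.7 and 43.7 FPKM in Dnmt3b+/+ embryos 1 and 3. The summed level of all 10 was 83.9, 140 and 81.8 FPKM in Dnmt3b-/-, 330, 95.9 and 226 FPKM in Dnmt3b+/+, and 237 to 268 FPKM in Dnmt3bCI/CI, but Dlk1 and Ttr made up 95.5 FPKM of the sum in Dnmt3b+/+ embryo 2. The other 8 summed to 50.2, 104 and 52.4 FPKM in Dnmt3b-/-, 249, 0.399 and 137 FPKM in Dnmt3b+/+, and 149 to 189 FPKM in Dnmt3bCI/CI. Of 5 erythroid markers, 2 rose, the embryonic globins Hba-x (1.79, adjusted p = 0.0180) and Hbb-bh1 (3.01, adjusted p = 0.0042). These 2 summed to 490 to 1848 FPKM in Dnmt3b-/- and 180 to 356 FPKM in Dnmt3b+/+. All 5 markers summed to 1779 to 5697 FPKM and 1329 to 2064 FPKM, mostly from Hbb-y, which was not called (0.76, adjusted p = 0.160), and globin reads enter the same total as those of the keratins. The 5 neural markers, none of them called at either level of p (limma, Tubb3 −0.34, adjusted p = 0.425), summed to 171 to 297 FPKM in Dnmt3b-/- and to 190, 349 and 223 FPKM in Dnmt3b+/+, with embryo 2 the highest.

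Of 9 gut and lung endoderm markers, 8 were tested and 1 rose, and of 4 notochord markers 3 were tested and 1 rose, in both lists Shh. Of 7 markers of visceral yolk sac endoderm, 6 were tested, and Lrp2 rose (0.57, adjusted p = 0.0321) while Ttr fell. None of 7 mesothelium and urogenital markers was called (limma, 0 also at an unadjusted p under 0.05, Emx2 −0.30, adjusted p = 0.348). Of 7 trophoblast markers, 4 had at most 3 reads in every embryo, and neither of the 2 tested was called at either level of p (limma, Hand1 0.56, adjusted p = 0.536). The summed levels in Dnmt3b+/+ and Dnmt3b-/- were 9.36 to 14.0 and 12.2 to 16.7 FPKM for gut and lung, 2.87 to 3.78 and 5.21 to 6.74 FPKM for notochord, 30.7 to 48.4 and 10.6 to 22.9 FPKM for yolk sac, 13.3 to 16.5 and 10.2 to 15.5 FPKM for mesothelium, and 0.971 to 2.06 and 0.713 to 4.20 FPKM for trophoblast. Leaving out Dnmt3b+/+ embryo 2, 3 further markers fell, Foxa3 of gut and lung (−1.03, adjusted p = 0.0375), Wt1 of mesothelium (−0.89, adjusted p = 0.0490) and Apom of yolk sac (−1.24, adjusted p = 0.0380). The yolk sac sum rested largely on Ttr: without it, the other 6 summed to 25.9, 1.39 and 15.97 FPKM in Dnmt3b+/+ and 7.64 to 14.8 FPKM in Dnmt3b-/-, with Dnmt3b+/+ embryo 2 the lowest. The yolk sac median changed from 0.14 to −1.13. The notochord sum rested largely on Shh, at 1.66 to 2.22 FPKM in Dnmt3b+/+ and 4.22 to 5.14 FPKM in Dnmt3b-/-. The other tested markers of that list, T and Foxa2, were not called by limma (adjusted p = 0.631 and 0.491). The part of these cells in the results of the 10 genes was not tested. The calls of Krt5, Krt14 and Krt15 were kept without Dnmt3b+/+ embryo 2, with log2 fold changes of −0.85, −1.02 and −1.03 (adjusted p from 0.0075 to 0.0087 by limma).

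Exons of Krt5 and Krt8 overlap annotated genes on the opposite strand, Gm44323 by 129 bases and Gm36026 by 101 bases. Whether the libraries keep the strand was not given in the sources used here, so reads of these partners cannot be told apart there.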

How the data were processed

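RNA-seq of 9 whole E11.5 embryos was analysed, and the 9 bisulfite samples of the series were not used here. The authors aligned trimmed paired-end reads with STAR to mm10, dropped alignments of low mapping quality and used SeqMonk to quantify genes. They deposited 1 table of FPKM values on the linear scale, in which a gene without reads holds a floor worth 0.9 reads. Filtering on mapping quality can lower genes with near-identical copies, and this was not tested. Library totals and reads were worked back from that floor and exon lengths of GENCODE M21 and served for depth only. Under 200 reads, 95.4% of values came within 0.05 of a whole read or at the floor. A row without a gene name was left out.

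Genotypes came from the sample labels. Genes reaching 0.1 FPKM in 3 embryos or more entered limma 3.58.1 (R 4.3.3, trend on the mean) as log2(FPKM + 0.1) in 1 model of 3 genotypes, with Benjamini-Hochberg adjustment over 19397 genes. A fold change is understated for genes of low level on this scale. The members and lists were chosen with earlier results of these data known. The text names all members, and from each list up to 3 genes past the threshold between Dnmt3b-/- and Dnmt3b+/+ in order of mean FPKM (the most abundant gene where none passed). For Trp63 and Krt8 it names the 5 genes of most similar pattern. Same-numbered embryos were not stated to be paired, and the model has no block. In simulated data of 19397 genes for Dnmt3b-/- against Dnmt3b+/+, 69% of 100 genes given a log2 change of 1 and 96% of 100 given 2 were called, with 7 other genes. Alternatives were other pseudocounts, filters and scalings, only the genotypes compared, no variance trend, a replicate block and leaving out each embryo. Correlations, similar patterns, and counts and medians of groups and lists without Dnmt3b+/+ embryo 2, correlations of deviations from the genotype means, and sums over parts of marker lists were added after seeing the data. Figures and tables were made with python 3.11.15, pandas 2.3.3 and matplotlib 3.10.9.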

Additional observations from a re-analysis of the deposited data

How the results depend on the processing

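The 3 members called in Dnmt3b-/- against Dnmt3b+/+ and against Dnmt3bCI/CI, and the 0 in Dnmt3bCI/CI against Dnmt3b+/+, were the same numbers in all 18 alternatives by limma. Trp63 could not be given a value with a minimum of 1 FPKM. With a fold change of at least 2, 1 member in Dnmt3b-/- against Dnmt3b+/+ became 2 with a pseudocount of 0.01 FPKM, and 0 with a pseudocount of 1 FPKM or quantile normalization, and 0 to 2 when an embryo was left out. Against Dnmt3bCI/CI it was 0, and 0 to 1 when an embryo was left out. All genes called between Dnmt3b-/- and Dnmt3b+/+ numbered 5001, and 2740 with only these genotypes in the model. They numbered 2438 to 6903 when an embryo was left out (lowest without Dnmt3b-/- embryo 2), against 3074 to 7243 for Dnmt3b-/- against Dnmt3bCI/CI (lowest without Dnmt3bCI/CI embryo 1) and 19 to 32 for Dnmt3bCI/CI against Dnmt3b+/+. The 24 related genes called became 11 to 29.

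With the replicate number as a block, 3029 genes were called between Dnmt3b-/- and Dnmt3b+/+, 3595 between Dnmt3b-/- and Dnmt3bCI/CI and 18 between Dnmt3bCI/CI and Dnmt3b+/+, and the members' calls did not change. Deviations of same-numbered embryos correlated at −0.0865 on average (9 pairs, −0.34 to 0.22) against 0.0478 for other pairs, so no pairing was seen. Quantile normalization turned the uncalled differences of Trp63 (0.0078) and Krt19 (0.050) between Dnmt3b-/- and Dnmt3b+/+ positive. When an embryo was left out, other uncalled log2 differences took both signs. In Dnmt3b-/- against Dnmt3b+/+ these were Krt19 (−0.29 to 0.25), Cdh1 (−0.14 to 0.37) and Perp (−0.062 to 0.35). In Dnmt3bCI/CI against Dnmt3b+/+ they were Krt5 (−0.17 to 0.031), Krt14 (−0.24 to 0.034), Krt8 (−0.088 to 0.72), Krt19 (−0.19 to 0.54), Epcam (−0.16 to 0.45), Cdh1 (−0.23 to 0.20) and Perp (−0.11 to 0.18). In Dnmt3b-/- against Dnmt3bCI/CI they were Krt8 (−0.035 to 0.43), Krt19 (−0.63 to 0.10), Cdh1 (−0.072 to 0.33) and Perp (−0.095 to 0.32). The cause was not tested.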

Other observations

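Krt5 was not among the genes for which similar patterns were sought at first, and its list was drawn after its values were seen. Over the 9 embryos, the genes closest to it in log2(FPKM + 0.1) among 12787 with a mean of at least 1 FPKM were Zdhhc9, Tspyl3, Fzd8, Gjb6 and Slc2a10, with Pearson correlations of 0.98 to 0.99. Without Dnmt3b+/+ embryo 2, 3 of them were still among the 5 closest. Gjb6 encodes connexin 30, a gap junction protein of epidermis and inner ear, and Fzd8 a Wnt receptor. As with the basal keratins among themselves, these correlations share the genotype of the embryos.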
